A study of Mus musculus with 4 samples.

Results

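The NADPH oxidase subunits described here are 6 genes, Cybb, Cyba, Ncf1, Ncf4, Rac2 and Nox4, followed through 8 probe sets on all 4 arrays of a mouse kidney study. They were taken by name from the platform annotation, out of 12394 genes with at least 1 probe set of a single symbol. Ncf1 and Nox4 had 2 probe sets each and the other members 1 each. Whole kidneys of male C57BL/6 mice, labelled 17 weeks old, were studied after induction of chronic glomerulonephritis (GN), an immune inflammation of the kidney's filtering units. The GN+Captopril group received apoferritin from horse spleen into the peritoneum, 10 mg on 5 days per week, with 100 µg of lipopolysaccharide 3 times per week as adjuvant, and captopril at 100 mg/kg/day in its drinking water. The GN+Water group received the same injections and plain water. The Saline+Captopril group received 0.15 M NaCl injections and captopril, and the Saline+Water group 0.15 M NaCl injections and plain water. Injections began at about 8 weeks of age and ran for 6 weeks, and kidneys were taken after 9 weeks. Each group had 6 mice and 1 array, and how many of them gave RNA to an array is not stated. Every difference is between single arrays, so it carries no error between mice and no test between groups can be made.

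NADPH oxidases move electrons from NADPH across a membrane onto oxygen and so make superoxide, or hydrogen peroxide in the case of Nox4. In phagocytes the catalytic subunit, encoded by Cybb, sits in the membrane with the smaller subunit encoded by Cyba. It stays silent until cytosolic subunits, among them those of Ncf1 and Ncf4, and a Rac GTPase, mainly Rac2 in blood cells, dock onto it. Nox4 encodes another catalytic subunit, abundant in kidney tubules, which also pairs with the product of Cyba but needs none of the cytosolic subunits. Angiotensin II is known to raise oxidase activity in kidney and vessel wall, and captopril inhibits the enzyme that makes angiotensin II.

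2 arrays stood apart from the rest. Xist, transcribed from the silenced X chromosome of females, had a log2 value of 8.97 on the array labelled GN+Water and of 5.02 to 5.21 on the other 3. The Y-linked Eif2s3y was at 3.43 on that array, against 8.02 to 8.29. These levels go against its male label, so it is called the array labelled GN+Water throughout. RNA of a female mouse of the group and RNA of another sample cannot be told apart here, and each direction drawn from this array carries that limit. On Saline+Water the median of 18 spike-in probe sets was 10.8, against 7.46 to 7.89 on the other arrays, and its correlation with them over all probe sets was 0.945 to 0.966, against 0.982 to 0.994 among the other 3. The pair GN+Captopril and Saline+Captopril contains neither of these 2 arrays, and the GN differences below are therefore given in that pair as well. Of 22 proximal tubule markers, which define most of the kidney cortex, 21 were measured and all 21 passed the filter on level described below.

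Cybb, the catalytic subunit of the phagocyte oxidase, was higher on both GN arrays than on both saline arrays. Its probe set, 1422978_at, had a log2 value of 7.37 on GN+Captopril, 7.91 on the array labelled GN+Water, 5.86 on Saline+Captopril and 6.26 on Saline+Water. The lowest GN value exceeded the highest saline value by 1.11 log2 units. GN+Captopril exceeded Saline+Captopril by 1.505, or 2.84-fold, and the array labelled GN+Water exceeded Saline+Water by 1.65, or 3.13-fold. Counting Cybb itself, 24 of 8207 genes had a difference at least as high in the captopril pair and 292 in the water pair. The saline values lay below 6.27, the level under which a gene was set aside from counts over all genes, though above the background limit of 4.36 to 4.81 set by negative-control probe sets. In a whole kidney, more cells that carry a transcript and more transcript per cell cannot be told apart.

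Rac2, the GTPase of blood cells that switches the phagocyte oxidase on, followed the same order of arrays with smaller differences. Its probe set, 1417620_at, was at 7.59 on GN+Captopril, 8.18 on the array labelled GN+Water, 6.74 on Saline+Captopril and 7.21 on Saline+Water. The difference was 0.86, or 1.81-fold, in the captopril pair and 0.97, or 1.97-fold, in the water pair. Both GN arrays again lay above both saline arrays, GN+Captopril by 0.39 over Saline+Water. Counting Rac2, 78 of 8207 genes were at least as high in the captopril pair and 884 in the water pair.

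**Figure D1:**
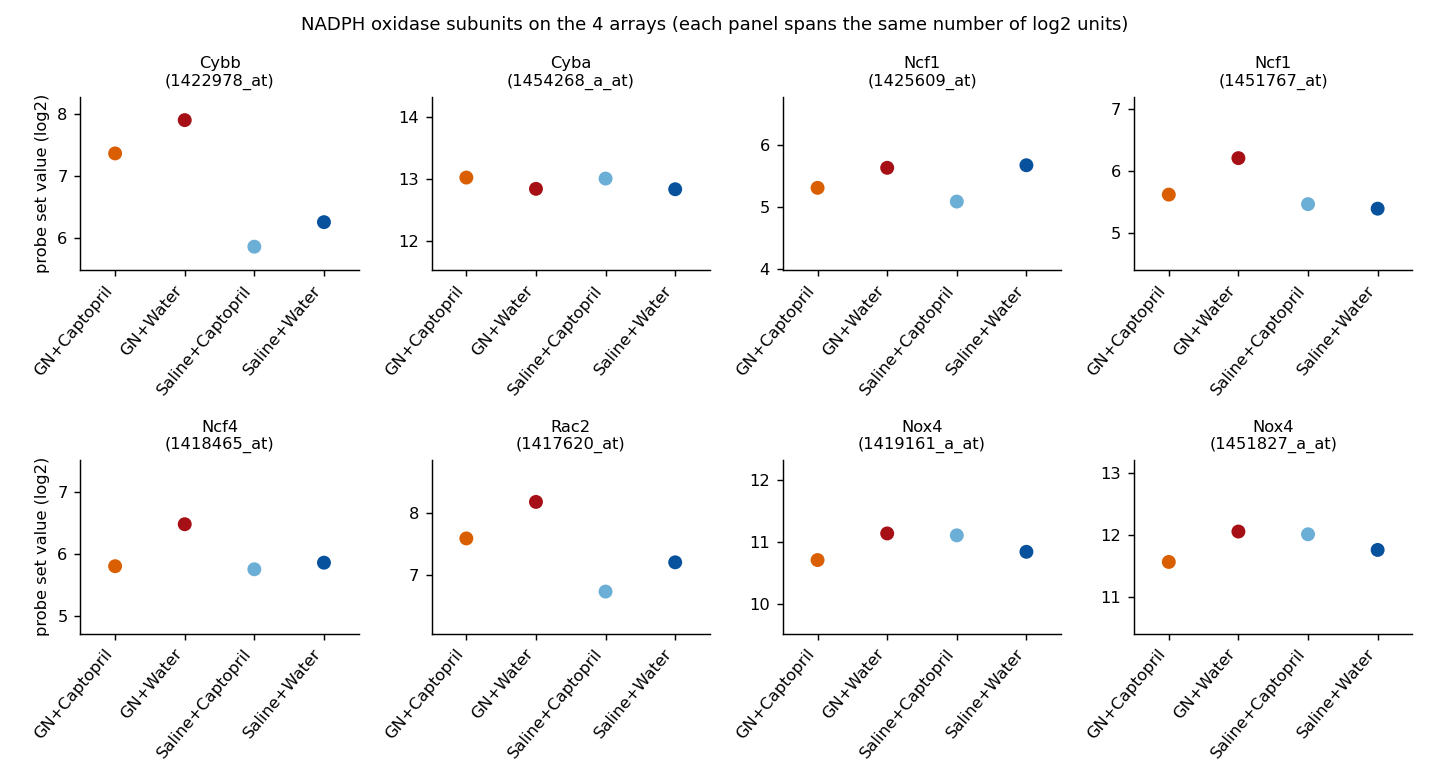
Deposited log2 values of the 8 probe sets of the NADPH oxidase subunits, 1 point for each of the 4 arrays, with every panel spanning the same number of log2 units. Cybb and Rac2 lie higher on both GN arrays than on both saline arrays, Cyba stays within 0.19 over the 4 arrays, and both Nox4 probe sets are lowest on GN+Captopril.

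The cytosolic subunits Ncf4 and, by its higher probe set, Ncf1 were highest on the array labelled GN+Water, and their values on the other 3 arrays lay close together. Ncf4, which binds a membrane lipid and sustains oxidase activity at phagosomes, was at 5.80 (1418465_at) on GN+Captopril, 6.48 on the array labelled GN+Water, 5.75 on Saline+Captopril and 5.86 on Saline+Water. The captopril pair differed by 0.05 and the water pair by 0.62, and the value on GN+Captopril lay 0.06 below Saline+Water. Ncf1, the organiser subunit whose phosphorylation starts assembly, had its higher probe set, 1451767_at, at 5.61 on GN+Captopril, 6.20 on the array labelled GN+Water, 5.46 on Saline+Captopril and 5.39 on Saline+Water. By that probe set the captopril pair differed by 0.15 and the water pair by 0.82. The other Ncf1 probe set, 1425609_at, gave 5.31 on GN+Captopril, 5.63 on the array labelled GN+Water, 5.09 on Saline+Captopril and 5.67 on Saline+Water. It did not follow the first in the water pair, where its difference was −0.04, and in the captopril pair its difference was 0.22. All these levels fell under the 40th percentile of probe sets by their mean, so Ncf1 and Ncf4 were 2 of the 6 members that the filter on level set aside.

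Cyba, the membrane partner shared by the oxidases of phagocytes and tubules, hardly differed between the arrays. Its probe set, 1454268_a_at, was at 13.02 on GN+Captopril, 12.84 on the array labelled GN+Water, 13.01 on Saline+Captopril and 12.84 on Saline+Water, a range of 0.19. The GN difference was 0.02 in the captopril pair and 0.01 in the water pair, with a sign that turned to −0.01 and −0.05 when each array was centred on its median. Of all probe sets, 99.2% had a lower mean, and a tubular share of the transcript was not separated here.

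Nox4, the tubular oxidase, did not follow the order of arrays seen for Cybb and Rac2. Its higher probe set, 1451827_a_at, was at 11.57 on GN+Captopril, 12.06 on the array labelled GN+Water, 12.01 on Saline+Captopril and 11.76 on Saline+Water. The other, 1419161_a_at, was at 10.70 on GN+Captopril, 11.13 on the array labelled GN+Water, 11.10 on Saline+Captopril and 10.84 on Saline+Water, the same order of arrays. The GN arrays were thus the highest and the lowest of the 4, with both saline arrays between them. The GN difference was −0.45 in the captopril pair (−0.40 by the other probe set) and 0.30 in the water pair (0.30 by the other). Counting Nox4, 60 of 8207 genes were at least as low in the captopril pair. Neighbouring levels, the array labelled GN+Water and Saline+Captopril, were 0.04 apart by the higher probe set.

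The promoters of Cybb and Nox4 are shown because they drive the catalytic subunits of the phagocyte and the tubular oxidase, whose order of arrays differed. RefSeq sequences of GRCm38.p6, 250 bases before and 50 after the start site, were found for 4 of the 6 members, Cybb, Cyba, Ncf1 and Nox4. Each was searched on both strands for GAGGAA, a core of sites for the myeloid factor PU.1, and for GGAA followed, after any 2 bases, by GAAA, a composite site of PU.1 with an interferon regulatory factor. The Cybb window lies on the minus strand at chrX:9469275-9469574 and the Nox4 window on the plus strand at chr7:87246399-87246698, and capitals mark bases that match either motif.
Cybb: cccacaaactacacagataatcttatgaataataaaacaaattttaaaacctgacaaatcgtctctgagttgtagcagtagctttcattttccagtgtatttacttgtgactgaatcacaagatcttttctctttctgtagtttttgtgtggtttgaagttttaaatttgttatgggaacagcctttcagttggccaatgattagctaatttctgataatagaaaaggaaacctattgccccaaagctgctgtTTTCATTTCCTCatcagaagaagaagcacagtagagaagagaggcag
Nox4: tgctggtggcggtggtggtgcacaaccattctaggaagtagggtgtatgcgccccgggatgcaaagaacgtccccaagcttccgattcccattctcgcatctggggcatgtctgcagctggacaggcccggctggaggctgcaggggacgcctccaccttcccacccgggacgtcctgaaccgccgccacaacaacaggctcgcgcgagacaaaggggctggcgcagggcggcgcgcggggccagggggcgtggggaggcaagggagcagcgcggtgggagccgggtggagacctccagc
In the Cybb window both motifs matched on the opposite strand, overlapping in bases 254 to 265 of 300, counted from the 5′ end. Both matches thus lay within the 50 bases after the annotated start site, and the 250 bases before it held neither motif. The Nox4, Cyba and Ncf1 windows held neither. Among 32851 RefSeq promoter windows of the same length, 28.3% held GAGGAA and 2.72% held the composite. A match describes the letters of the window and shows no binding.

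Seen together, the 5 phagocyte subunits had a median GN difference of 0.15 in the captopril pair and 0.82 in the water pair, while the median of the 8207 genes that passed the filter was 0 in both. The median of the 5 is in both pairs the value of Ncf1 by its higher probe set. The mean over the 5 was 0.52 in the captopril pair and 0.81 in the water pair. The 3 that passed the filter, Cybb, Rac2 and Cyba, had a median of 0.86 in the captopril pair and 0.97 in the water pair, but a filter on level favours members that are high in one group. At least 2-fold higher was 1 of 5 in each pair, Cybb. Shares of all genes, here and below, are over the 8207 that passed the filter, which Ncf1 and Ncf4 did not. Of these genes, 0.719% were at least 2-fold higher in the captopril pair and 10.3% in the water pair. At least 1.5-fold higher were 2 of 5 in the captopril pair (Cybb and Rac2), against 1.85% of all genes, and 4 of 5 in the water pair, against 19.6% of all genes. In the water pair Ncf1 is counted by its higher probe set, the other giving −0.04. Ncf4 is counted there at 0.62, where 1.5-fold is 0.585. It was at 0.565, short of that, with each array centred on its median, and at 0.71 after quantile normalisation. The phagocyte median exceeded the Nox4 difference by 0.60 in the captopril pair and by 0.52 in the water pair. All 5 subunits lay above Nox4 in the captopril pair and 4 of 5 in the water pair, Cyba being the exception. By its other probe set Ncf1 lay below Nox4 in the water pair as well.

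**Figure D2:**
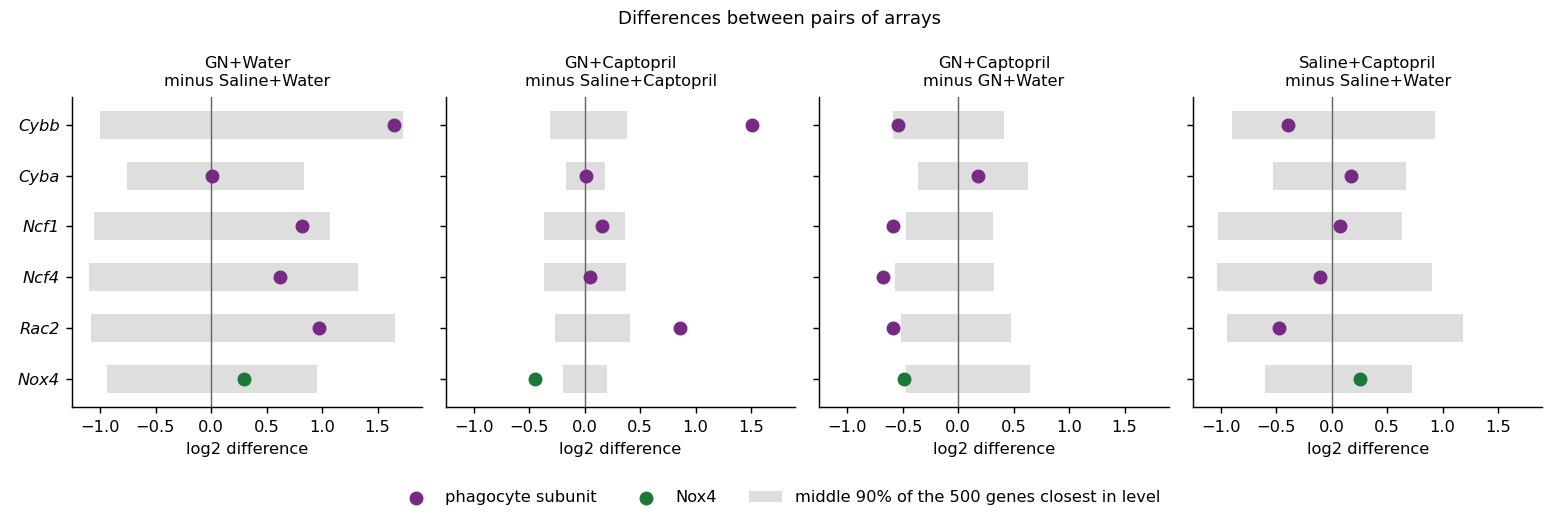
Log2 difference of each member between 2 arrays, in 4 panels for the 4 comparisons, with grey bars for the middle 90% of differences of the 500 genes closest in level. In the captopril pair Cybb and Rac2 lie above their bars and Nox4 below its bar, whereas in the water pair, whose bars are wider, all 6 members lie inside.

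The spread of other genes differed between the pairs. Among the 500 genes closest in level to Cybb, the middle 90% of differences ran from −0.31 to 0.39 in the captopril pair and from −0.998 to 1.73 in the water pair. Cybb lay above the range in the captopril pair and inside it in the water pair. Rac2 at 0.86 lay above a range of −0.27 to 0.41 in the captopril pair, and inside −1.08 to 1.66 in the water pair. Nox4 at −0.45 lay below a range of −0.19 to 0.20 in the captopril pair, and inside −0.94 to 0.95 in the water pair. Ncf1, Ncf4 and Cyba lay inside their ranges in both pairs. These ranges describe the arrays compared and are no error between mice.

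Captopril in GN mice was the comparison closest to the question of the study, whether inhibition of the converting enzyme lessens kidney injury. On GN+Captopril relative to the array labelled GN+Water, 4 phagocyte subunits were lower by similar amounts, with differences of −0.68 for Ncf4, −0.59 for Ncf1, −0.59 for Rac2 and −0.54 for Cybb. Cyba differed by 0.18 the other way. At least 1.5-fold lower were 3 of 5, Ncf4, Ncf1 and Rac2, against 4.52% of all genes. Ncf1 is counted by its higher probe set, and the other gave −0.32, short of 1.5-fold. The count also depends on scaling, since 1.5-fold is 0.585 log2 units. With each array centred on its median, Ncf1 and Rac2 were both at −0.582, short of it, and Ncf4 was at −0.67. After quantile normalisation Ncf1 was at −0.52, short of it, Rac2 at −0.60 and Ncf4 at −0.59. None of the 5 was at least 2-fold lower, and 1.12% of all genes were. Nox4 was lower too, with −0.49 by its higher probe set and −0.43 by the other, so the phagocyte median of −0.59 and the higher Nox4 probe set were within 0.10 of each other. Rac2, Ncf4 and, by their higher probe sets, Ncf1 and Nox4 lay just below the middle 90% of genes of like level. For Nox4 that range began at −0.47, and Cybb lay inside its own. The other probe sets, at −0.32 for Ncf1 and −0.43 for Nox4, were not set against a range. Here the array with discordant sex-linked transcripts is one of the pair and has no substitute, and Xist differed by −3.94.

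In saline mice, captopril went with differences of mixed sign. Saline+Captopril differed from Saline+Water by −0.47 for Rac2, −0.40 for Cybb, −0.11 for Ncf4, 0.07 for Ncf1, 0.17 for Cyba and 0.25 for Nox4. The phagocyte median was −0.11. By these probe sets none of the 6 reached 1.5-fold, while 10.2% of all genes were at least 1.5-fold lower and 15.6% at least 1.5-fold higher. All 6 lay within the range of genes of like level. For Ncf1 the lower probe set gave −0.59, just past 1.5-fold lower, so its probe sets differed in sign here. The array with the high spike-ins is one of this pair and has no substitute.

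Set against the saline difference, the difference on captopril in GN mice was of the same sign for Cybb, Rac2, Ncf4 and Cyba and of the opposite sign for Nox4 and for the higher Ncf1 probe set. The GN difference on captopril minus that on water was −0.14 for Cybb, −0.12 for Rac2, 0.01 for Cyba, −0.57 for Ncf4, −0.66 for Ncf1 and −0.74 for Nox4. Of the 6 members Cybb, Rac2 and Cyba thus had GN differences within 0.15 of each other in the pairs, and Ncf4, Ncf1 and Nox4 did not. These values use all 4 arrays, the discordant ones included, and were not tested.

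Other genes of the pathway were taken from a list of 24 partners and relatives, of which 17 were measured. Nox1, Nox3, Noxa1, Duox1 and Duox2 were not analysed here. At least 1.5-fold higher in the captopril pair were 2 of 17, and none was as far below; the median was 0.05. In the water pair 4 were higher and 4 lower, with a median of −0.05. Over all genes 0.207% were at least 1.5-fold lower in the captopril pair and 15.3% in the water pair. At least 1.5-fold higher were 1.85% and 19.6% in the same order. Arhgdib, a leukocyte inhibitor that holds Rac proteins in the cytosol, was at 9.19 on GN+Captopril, 9.82 on the array labelled GN+Water, 8.55 on Saline+Captopril and 8.24 on Saline+Water, and so was 0.63 higher in the captopril pair and 1.59 in the water pair. Tlr2, a receptor that primes the oxidase in phagocytes, was 0.35 higher in the captopril pair and 1.44 in the water pair. Prkcd, a kinase that phosphorylates the organiser subunit, was at 9.22 to 9.40 on 3 arrays and 10.4 on Saline+Water, so that its difference of −1.21 in the water pair stood beside 0.08 in the captopril pair. Rac1, the widely expressed Rac, differed by 0.02 in the captopril pair and 0.13 in the water pair. Cybc1, a chaperone for the membrane subunits, differed by 0.10 and 0.74 in the same order, and Poldip2, a protein that binds the membrane partner of Nox4, by −0.05 and −0.72.

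Factors known to act on the Cybb promoter in phagocytes were at hand for 5 of 7 genes. Irf8, an interferon regulatory factor of myeloid cells, was 0.78 higher in the captopril pair and 0.75 in the water pair. Spi1, which encodes PU.1, was at 6.55 on GN+Captopril, 6.81 on the array labelled GN+Water, 5.84 on Saline+Captopril and 6.53 on Saline+Water. Its difference was 0.71 in the captopril pair and 0.28 in the water pair. Over the list, 2 of 5 were at least 1.5-fold higher in the captopril pair and 1 of 5 in the water pair, against 1.85% and 19.6% of all genes, with none lower in either.

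Macrophage and monocyte markers were higher on the GN arrays, as Cybb and Rac2 were. Of 22 macrophage and monocyte markers, the captopril pair had 17 that were higher by 1.5-fold or more and none lower, and their median difference was 1.002. In the water pair 20 were higher and none lower, and the median was 1.77. Over all genes 1.85% were that much higher in the captopril pair and 19.6% in the water pair. The summed linear level of these markers was 13840 on GN+Captopril, 22885 on the array labelled GN+Water, 5177 on Saline+Captopril and 4858 on Saline+Water. Lyz2, a lysozyme gene, differed by 3.20 in the captopril pair and 3.86 in the water pair, and Ctss, a lysosomal protease gene, by 1.55 and 3.24. On GN+Captopril relative to the array labelled GN+Water, 14 of 22 were at least 1.5-fold lower, against 4.52% of all genes. The median of the 22 was −0.70, beside the phagocyte subunits' −0.59. Cd163, a marker of resident macrophages, was near background on all 4 arrays. The part of these markers in the subunits' differences was not tested.

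Neutrophils use the same oxidase, and their markers gave other values. Of 13 measured, the captopril pair had 2 that were higher by 1.5-fold or more and none lower, against 1.85% and 0.207% of all genes. Their median difference was 0. In the water pair none was higher and 5 were lower, against 19.6% and 15.3% of all genes, and the median was −0.49. On Saline+Captopril relative to Saline+Water 5 were lower as well, against 10.2% of all genes. The summed linear level of these neutrophil markers was 548 on GN+Captopril, 567 on the array labelled GN+Water, 518 on Saline+Captopril and 810 on Saline+Water. Only 1 of the 13 passed the filter on level. S100a8, a calcium-binding protein gene of neutrophils, differed by 1.06 in the captopril pair and −0.70 in the water pair, and S100a9 by 0.60 and −1.38 in the same order. S100a9 was at 7.19 on Saline+Water and at 5.38 to 5.98 on the other arrays.

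**Figure D3:**
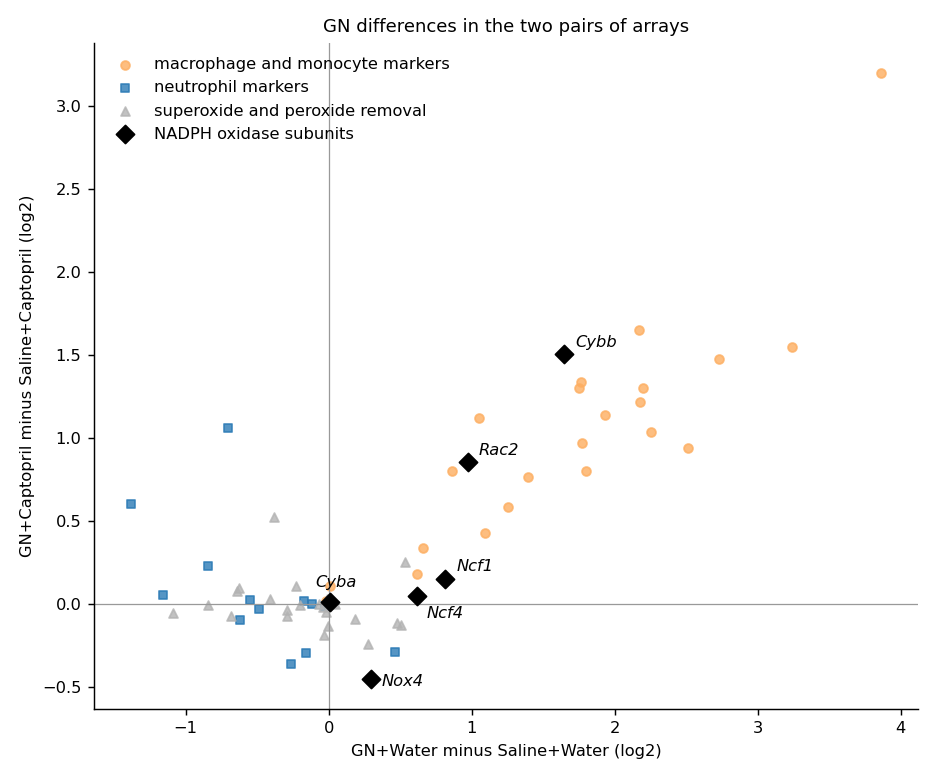
GN difference of single genes (log2), the array labelled GN+Water minus Saline+Water on the horizontal axis and GN+Captopril minus Saline+Captopril on the vertical axis. Cybb at 1.65 and 1.505 and Rac2 at 0.97 and 0.86 lie among the macrophage and monocyte markers, Cyba lies at the origin, and Nox4 lies below 0 on the vertical axis.

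Of the lymphocyte lists, B and plasma cell markers had a median difference of 0.54 in the captopril pair and 0.81 in the water pair over 7 genes, and T and NK cell markers 0.31 and 0.10 over 9. Single plasma cell transcripts differed far more than these medians. Ighm, the heavy chain of IgM, differed by 4.67 in the captopril pair and 6.71 in the water pair, and Jchain, which links antibody units, by 4.43 in the captopril pair, while on Saline+Water it was near background. Beside Nox4, the proximal tubule markers had a median of 0.00 in the captopril pair, with 0 of 21 at least 1.5-fold apart. In the water pair their median was −0.27, with 1 higher and 5 lower. Shares of all genes beside the tubular, adipose and stromal counts here were 1.85% higher and 0.207% lower in the captopril pair. In the water pair they were 19.6% higher and 15.3% lower. Slc7a13, an amino acid transporter gene, differed by −6.01 in the water pair, against 0.09 in the captopril pair. It was at 6.54 on the array labelled GN+Water, the one with discordant sex-linked transcripts, and at 12.6 to 13.2 on the other arrays. On GN+Captopril relative to the array labelled GN+Water, 6 of 21 were at least 1.5-fold higher and 0 lower, against 3.7% of all genes higher, while Nox4 was lower. Slc7a13 was among the 6, at 6.65. The discordant array is one of this pair too, and the part of sex in these tubular differences was not tested. The 14 markers of the loop of Henle, distal tubule and collecting duct had a median of −0.12 in the captopril pair, with 0 at least 1.5-fold apart, and of 0.20 in the water pair, with 2 higher and 2 lower. On GN+Captopril relative to the array labelled GN+Water their median was −0.41, beside −0.49 for Nox4. In that comparison 0 were higher and 4 of 14 lower, against 3.7% and 4.52% of all genes. Adipose and adrenal markers, from tissue around the kidney, had 4 of 7 at least 1.5-fold higher in the captopril pair, Hsd3b1 among them at 1.43, and 2 of 7 in the water pair. Of 12 fibroblast, mesangial and smooth muscle markers, 2 were at least 1.5-fold higher in the captopril pair, with a median of 0.35, and 7 in the water pair, with a median of 1.25. On GN+Captopril relative to the array labelled GN+Water 5 of these 12 were lower, against 4.52% of all genes. Their median was −0.57, beside −0.59 for the phagocyte subunits. The part of these tubular, neighbouring and stromal markers in the differences of the oxidase genes was not tested.

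Of 25 measured genes whose products remove superoxide and peroxide or control those that do, 0 were at least 1.5-fold apart in the captopril pair. The median there was −0.01, and only 1.85% of all genes were that much higher and 0.207% lower. In the water pair 0 were higher, against 19.6% of all genes, and 5 of 25 were lower, close to the 15.3% of all genes lower there. Sod3, the superoxide dismutase outside cells, was at 11.6 on GN+Captopril, 11.2 on the array labelled GN+Water, 11.6 on Saline+Captopril and 12.3 on Saline+Water, a difference of −0.05 in the captopril pair and −1.08 in the water pair. Sod1, the cytosolic dismutase, differed by −0.07 and −0.68 in the same order. Cat, which encodes catalase, differed by −0.13 and 0.50. Other sources of superoxide and peroxide gave 0 of 12 genes at least 1.5-fold apart in the captopril pair, against 1.85% of all genes higher and 0.207% lower. In the water pair 2 were higher and 4 lower, against 19.6% and 15.3% of all genes. Hao2, a peroxisomal oxidase gene, differed there by 1.31 and Cyp2e1, a cytochrome P450 gene, by −2.51, against −0.14 and 0.09 in the captopril pair. The array labelled GN+Water, with discordant sex-linked transcripts, stood apart for both. Cyp2e1 was at 10.7 on it and 13.3 to 13.5 on the other arrays, and Hao2 at 12.9 on it and 11.5 to 12.1 on the others. The part of sex in these differences was not tested.

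The genes whose profile came nearest to Cybb, by the root mean square distance between values centred on their own means over the 4 arrays, were sought among 8203 genes. They were Aif1 at a distance of 0.07, Itgb2 at 0.08, Coro1a at 0.12, Cd53 at 0.13 and C1qc at 0.19 log2 units. Aif1 is a macrophage gene, Itgb2 a leukocyte integrin chain, Coro1a an actin-binding protein of leukocytes, Cd53 a leukocyte membrane protein and C1qc a chain of complement C1q. Aif1 differed by 1.34 in the captopril pair and 1.76 in the water pair, and Itgb2 by 1.30 and 1.75. Nearest to Nox4 were Scd2 at 0.03, Pgrmc1 at 0.05, L3hypdh at 0.06, Rbm5 at 0.07 and Sncb at 0.07. Scd2 encodes a fatty acid desaturase and differed by −0.50 in the captopril pair and 0.26 in the water pair. With 4 arrays, small distances are easily reached where a profile is as flat as that of Nox4.

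**Figure D4:**
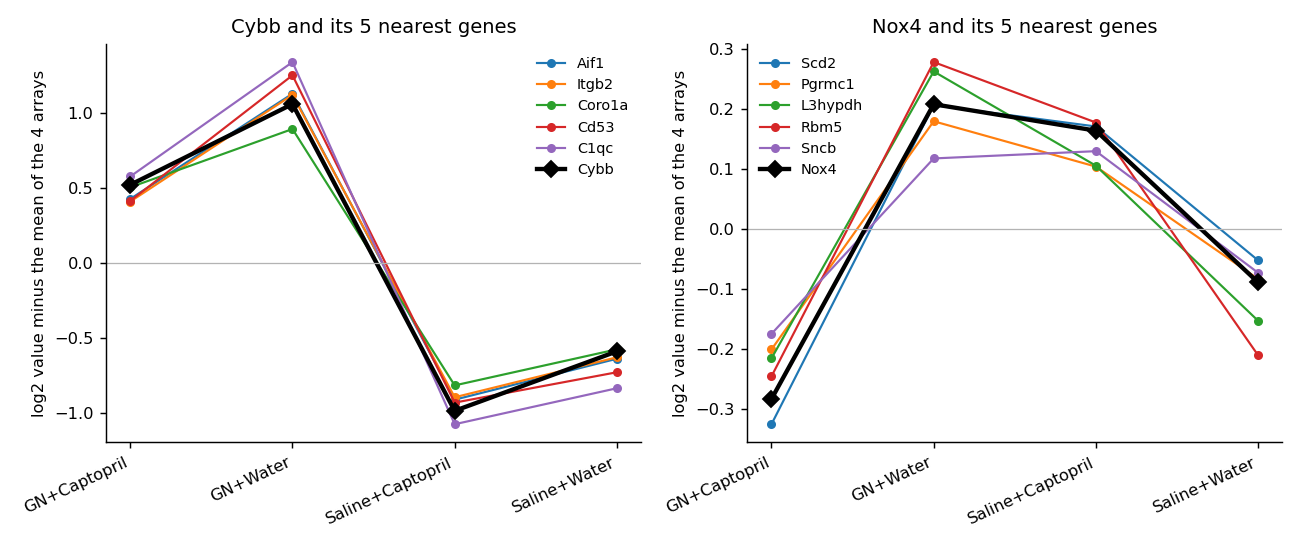
Values of Cybb (left) and Nox4 (right) and of their 5 nearest genes on the 4 arrays, each minus its own mean, in log2 units on separate vertical scales. The Cybb group lies above its mean on both GN arrays, and every gene of the Nox4 group is lowest on GN+Captopril.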

How the data were processed

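Biotinylated cRNA from 6 µg of total RNA was run on Affymetrix arrays, as the labels' protocols state. The deposited values are on a log2 scale, as judged from their range, and the submitters' processing notes name GCOS and RMA. Not given in the sources used here are versions, background correction and normalisation, and no detection calls were used. Of 22690 probe sets, 20393 had 1 symbol in the platform annotation, updated through the Entrez ID with a mouse gene table of GRCm38.p6. A gene was its probe set with the highest mean, and 8207 of 12394 genes passed a filter at the 40th percentile (6.27). The background limit of an array was the 90th percentile of its 27 negative-control probe sets.

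With 1 array per group there are 0 residual degrees of freedom, so each comparison is a log2 difference with no test. The number of arrays limits the precision. For each member, the middle 90% of differences of the 500 genes closest in mean level of the same 2 arrays is given as a description. Alternatives covered the probe set used, scaling, the arrays paired, the filter and the fold. Named genes were the members, partners at least 2-fold apart or central to the complexes, and the 5 nearest profiles. Up to 4 members of each other list were named, among those with the largest GN differences. Cat and Cd163 were named besides, though their differences were not among the largest of their lists. Members and lists were chosen with earlier results of these data known. The count over genes was checked on simulated data. Python 3.11.15 and pandas 2.3.3 were used.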

Additional observations from a re-analysis of the deposited data

Results flagged for a closer look

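Nox4 differed in sign between the pairs, and this was not tested. Its GN difference was −0.45 in the captopril pair and 0.30 in the water pair, and its captopril difference was −0.49 in GN mice and 0.25 in saline mice. Ncf1, by its higher probe set, had a captopril difference of −0.59 in GN mice and 0.073 in saline mice, also untested. By its other probe set both captopril differences were below 0, at −0.32 in GN mice and −0.59 in saline mice.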

How the results depend on the processing

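Of 136 member values and medians recomputed under alternatives, 132 stayed within 1.5-fold of the value given. Some of these could not move. Averaging probe sets leaves Cybb, Cyba, Ncf4 and Rac2, with 1 probe set each, as they were. Leaving out shared probe sets does the same for Cybb, Ncf1, Ncf4 and Rac2. Median centring cancels in the phagocyte median minus Nox4. A value under 1.5-fold can also change sign within that limit, and a value just past 1.5-fold can fall short of it. The 4 values past the limit all came when GN+Captopril was set against Saline+Water instead of the array labelled GN+Water. The phagocyte median was then 0.23, Ncf1 0.23, Rac2 0.39 and Ncf4 turned to −0.057, and the cause was not tested. Among the small values, Nox4 was −0.19 with that pair, the phagocyte median minus Nox4 for captopril in GN mice was 0.006 after quantile normalisation and −0.10 as deposited, and Ncf1 for captopril in saline mice was −0.26 with its probe sets averaged. The count of genes at least 2-fold apart in the water pair was 1212, and 297 when Saline+Captopril was the baseline, 2861 at 1.5-fold and 800 under the stricter filter, at the 60th percentile. In the captopril pair it was 61, and 169 at 1.5-fold and 38 with the stricter filter. For captopril in GN mice it was 206, and 675 at 1.5-fold. For captopril in saline mice it was 699, and 440 with all probe sets of a gene averaged, 2113 at 1.5-fold and 464 with the stricter filter. Median centring and quantile normalisation moved the median of all genes by at most 0.07. Nox4 and Cyba have only probe sets of the kind shared between transcripts, so leaving those out gave no value for them. No paired analysis was possible because each group has 1 array.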
